A study of Rattus norvegicus with 20 samples.

Results

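The 30 genes described here encode the enzymes of cholesterol and fatty acid synthesis and the proteins that switch those enzymes on. Their rows were found by name, and no measured value entered that rule. The list itself was chosen with earlier results of these data known, which the counts below do not allow for. Of the 15503 genes in the deposited table, 19 members were found by KEGG gene name, 9 by protein accession and 2 by protein name. All 30 were found, and all 30 passed the filter on low counts, which left 15449 genes for testing.

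RNA sequencing had been run on cultured neonatal rat cardiomyocytes, the muscle cells of newborn rat hearts, in 20 libraries, 5 per group. The groups received histidine at 100 nM together with doxorubicin at 1 µM, doxorubicin alone at 1 µM, histidine alone at 100 nM, or phosphate-buffered saline (PBS), each for 72 h. Doxorubicin is a chemotherapy drug of the anthracycline class that damages DNA through topoisomerase II and can injure heart muscle, and histidine is an amino acid. The labels give no transgene, allele or genotype for any group. They do not say whether the 5 libraries of a group came from separate cultures, so the p-values below measure only the spread between these libraries, which may be technical.

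Animal cells build cholesterol from acetyl-CoA through mevalonate, isoprenoid phosphates, squalene and lanosterol, and build palmitate from acetyl-CoA through malonyl-CoA before elongases and desaturases lengthen and unsaturate it. The transcription factors SREBP-1 and SREBP-2, encoded by Srebf1 and Srebf2, control most of these genes. They are made as precursors in the endoplasmic reticulum, where the escort protein SCAP binds them. When sterols are plentiful the INSIG proteins hold SCAP in place, and when sterols run low SCAP carries the precursors to the Golgi to be cut and released to the nucleus. Heart muscle takes most of its fatty acids from the circulation.

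Promoters of SREBP targets often carry a sterol regulatory element next to a CCAAT box, bound by NF-Y, and a GC box, bound by Sp1. RefSeq promoter windows of the rat assembly GRCr8, 300 bases each and ending 50 bases after the start of the transcript, were at hand for 23 of the 30 members; Srebf1 had 2 windows. Matches on either strand were counted. The sterol element written as TCACCCCAC was found in windows of 0 members, against 0.484% of the 33469 windows of all genes, and TCACNCCAC also in 0 members, against 1.12%. A shorter form, TCACNCNA, which every match of the longer forms contains and which was added after those forms had matched no member, was found in 7 of 23 members (30.4%), against 9.89% of all windows. CCAAT was found in 18 members (78.3%), against 37.5%, the GC box GGGCGG in 20 (87%), against 33.1%, and the E-box CACGTG in 3 (13%), against 6.42%. Members were counted once each and the comparison shares count windows, of which a gene can have more than 1. A match is a description of the letters and no evidence that a protein binds there.

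The stretches below come from 4 of the 5 members whose TCACNCNA match lies upstream of the start, among them both SREBP genes, and from Fads1 and Scd, the 2 members with the largest falls under doxorubicin. They are written 5′ to 3′ along the transcribed strand, with TCACNCNA and CCAAT matches, or their reverse complements, in capitals.
Srebf1 (chr10:45519081-45519156, minus strand, GRCr8): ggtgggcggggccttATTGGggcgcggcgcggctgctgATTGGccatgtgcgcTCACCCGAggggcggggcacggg
Srebf2 (chr7:115543136-115543197, plus strand): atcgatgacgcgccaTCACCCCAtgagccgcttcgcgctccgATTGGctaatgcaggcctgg
Fdps (chr2:176804882-176804961, minus strand): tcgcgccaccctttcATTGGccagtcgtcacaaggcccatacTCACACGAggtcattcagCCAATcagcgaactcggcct
Acss2 (chr3:164464615-164464694, plus strand): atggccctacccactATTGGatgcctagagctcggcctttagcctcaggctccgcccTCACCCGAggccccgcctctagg
Fads1 (chr1:216252556-216252590, plus strand): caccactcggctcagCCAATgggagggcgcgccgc
Scd (chr1:253231732-253231851, minus strand): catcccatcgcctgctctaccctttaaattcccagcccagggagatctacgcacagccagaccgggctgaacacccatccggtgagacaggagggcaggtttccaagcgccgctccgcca
In Fdps the sterol match began 103 bases before the start, between CCAAT boxes that began 130 and 85 bases before it. Fads1 held 1 CCAAT box, 121 bases before the start, and no TCACNCNA. The Scd window held neither motif, and neither did those of Fads2, Dhcr7, Cyp51 and Scap. These letters being missing from a window says nothing about whether a factor acts on the gene.

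On the length-scaled scale, FPKM (reads scaled to gene length and to the reads of the library, as deposited), the genes covered a wide range in PBS cultures. Msmo1, the C4 demethylase of the sterol nucleus, was highest at 49.8 ± 6.56 FPKM, followed by Cyp51, which removes the C14 methyl group of lanosterol, at 42.5 ± 6.22 FPKM, and Hmgcs1, the synthase that makes HMG-CoA, at 41.6 ± 8.98 FPKM (mean ± SD, n = 5). The lowest was Hsd17b7, a 3-ketosteroid reductase of the pathway, at 3.44 ± 0.267 FPKM. Each gene overlapped its next lower neighbour in this order, with 1 exception: the 5 libraries of Tm7sf2, at 5.02 ± 0.946 FPKM, all lay above those of Hsd17b7. The length implied by reads and FPKM changed between libraries for Fdps (by 0.83 on the log2 scale), Lss (0.34), Fads2 (0.11) and Elovl6 (0.09), and by at most 0.03 for the other 26, so FPKM and count-based levels of those 4 can differ.

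**Figure D1:**
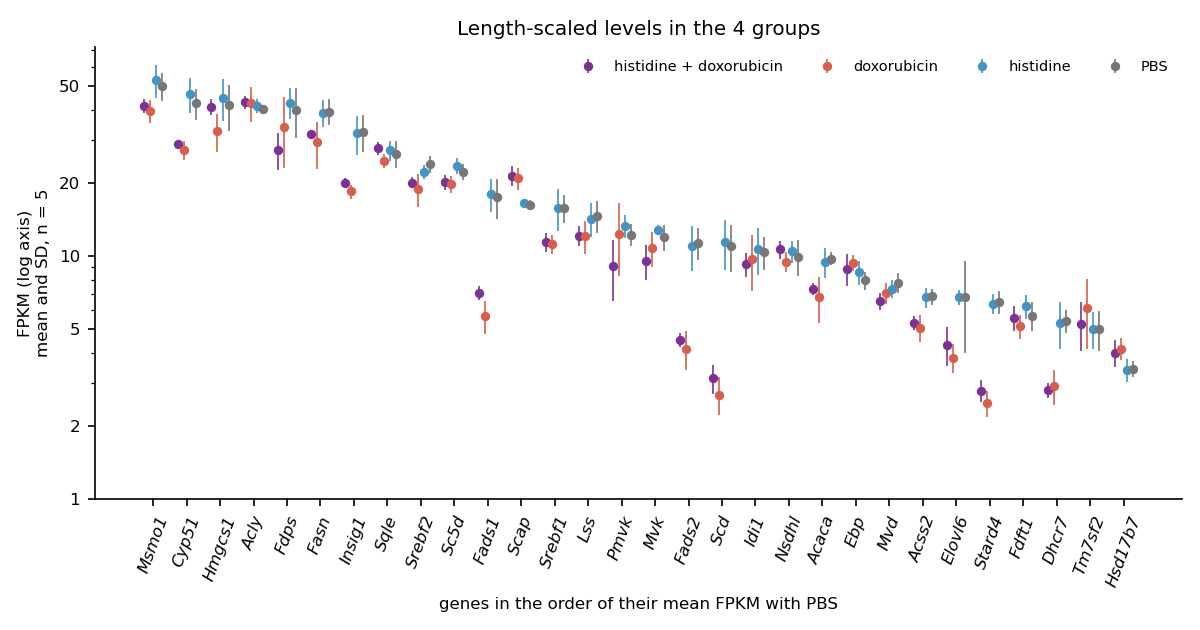
Mean FPKM with SD (n = 5 libraries per group) of the 30 genes on a log axis, ordered by their level with PBS, in the 4 groups. Scd, Fads1, Fads2 and Stard4 lie far lower in both doxorubicin groups than in the others, and Acly shows no such gap.

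Libraries held 58226690 to 71856131 reads with both compounds, 54072746 to 83624651 with doxorubicin, 53246205 to 71623955 with histidine and 63561787 to 78204997 with PBS. The first principal component of all genes (69.3% of variance) separated the 10 doxorubicin-treated libraries from the other 10. Doxorubicin replicate 4 stood apart on the second (8.8%), at -62.9 against -7.4 to 15 in the other 19 libraries. Cardiomyocyte markers were present in every group, beside far higher fibroblast markers: 14 cardiomyocyte genes summed to 1094 to 1251 CPM and 12 fibroblast genes to 106500 to 112000 CPM with PBS. Doxorubicin moved the cell type markers as well. Of 14 cardiomyocyte markers 13 fell against PBS (sum 191.8 to 314.6 CPM with doxorubicin), of 11 macrophage and leukocyte markers all 11 fell (48.8 to 78.0 CPM with doxorubicin, 1835 to 1953 CPM with PBS), of 10 markers of dividing cells all 10 fell (57.8 to 119 CPM, against 733 to 770 CPM), and of 12 fibroblast markers 3 fell and 4 rose (70610 to 104800 CPM with doxorubicin). Smooth muscle and pericyte markers fell in 8 of 10 and rose in 1. Endothelial markers fell in 4 of 7 and rose in 2, and epicardial and mesothelial markers fell in 1 of 7 and rose in 3. Schwann and neuronal markers fell in 0 of 5 and rose in 3, and 0 of 2 adipocyte markers passed. By the same test 21.5% of all genes fell and 21.7% rose against PBS, and a count near these shares is no result about its list. With both compounds against histidine alone, all 14 cardiomyocyte markers fell (210.0 to 234 CPM with both, 992 to 1168 CPM with histidine), and so did all 11 macrophage and all 10 dividing-cell markers. Fibroblast markers fell in 2 of 12 and rose in 2, smooth muscle in 5 of 10 and 1, and endothelial in 4 of 7 and 1. Epicardial markers fell in 2 of 7 and rose in 3, Schwann and neuronal in 0 of 5 and 4, and adipocyte in 1 of 2 and 0. Among all genes 20.3% fell and 19.9% rose there. No marker was at 0 in every library of a group. In bulk RNA fewer cells of a type and less RNA per cell cannot be told apart, and the part of these shifts in the results on the synthesis genes was not tested.

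Summed over the 30 genes, expression came to 1789, 1739, 1644, 1646 and 1729 CPM in doxorubicin replicates 1 to 5, against 2302, 2464, 1857, 2223 and 2406 CPM in PBS replicates 1 to 5 (CPM, read counts scaled to a common library total after TMM adjustment). With both compounds the sums were 1769, 1758, 1796, 1769 and 1746 CPM, against 2443, 2428, 1804, 2284 and 2352 CPM with histidine alone. After TMM adjustment all 10 sums with doxorubicin lay below all 10 without it. The narrowest gap was to replicate 3 of the histidine and PBS groups, which lay far below the other 4 libraries of their groups. As a percent of all reads, without TMM, the groups overlapped at these libraries. Histidine replicate 3 held 0.18% and PBS replicate 3 held 0.182%. The range was 0.179% to 0.186% with both compounds and 0.149% to 0.182% with doxorubicin.

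In doxorubicin against PBS, 17 of the 30 members fell, 1 rose and 12 did not pass (edgeR quasi-likelihood test, Benjamini-Hochberg adjusted p under 0.05 over all 15449 genes). Among all genes 21.5% fell and 21.7% rose, and together 43.2% passed. The median log2 fold change was -0.36 over the members and 0.05 over all genes tested. In 12 members all 5 doxorubicin libraries lay below all 5 PBS libraries, and in 1 above, while over all genes 17.5% were wholly lower and 13.6% wholly higher. In both compounds against histidine alone, a comparison that shares no library with the first, 19 members fell, 1 rose and 10 did not pass, beside 20.3% of all genes that fell, 19.9% that rose and 40.2% that passed in either direction. There the median was -0.38 over the members and 0.01 over all genes, and 14 members were wholly lower and 1 wholly higher, beside 18.7% and 16.5% of all genes. The sign was the same in both comparisons for 29 of the 30, all but Ebp, and 16 members fell in both. These 2 counts were not made over all genes, so they are no result about the list. The plot of fold changes shows the 30 genes by role.

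**Figure D2:**
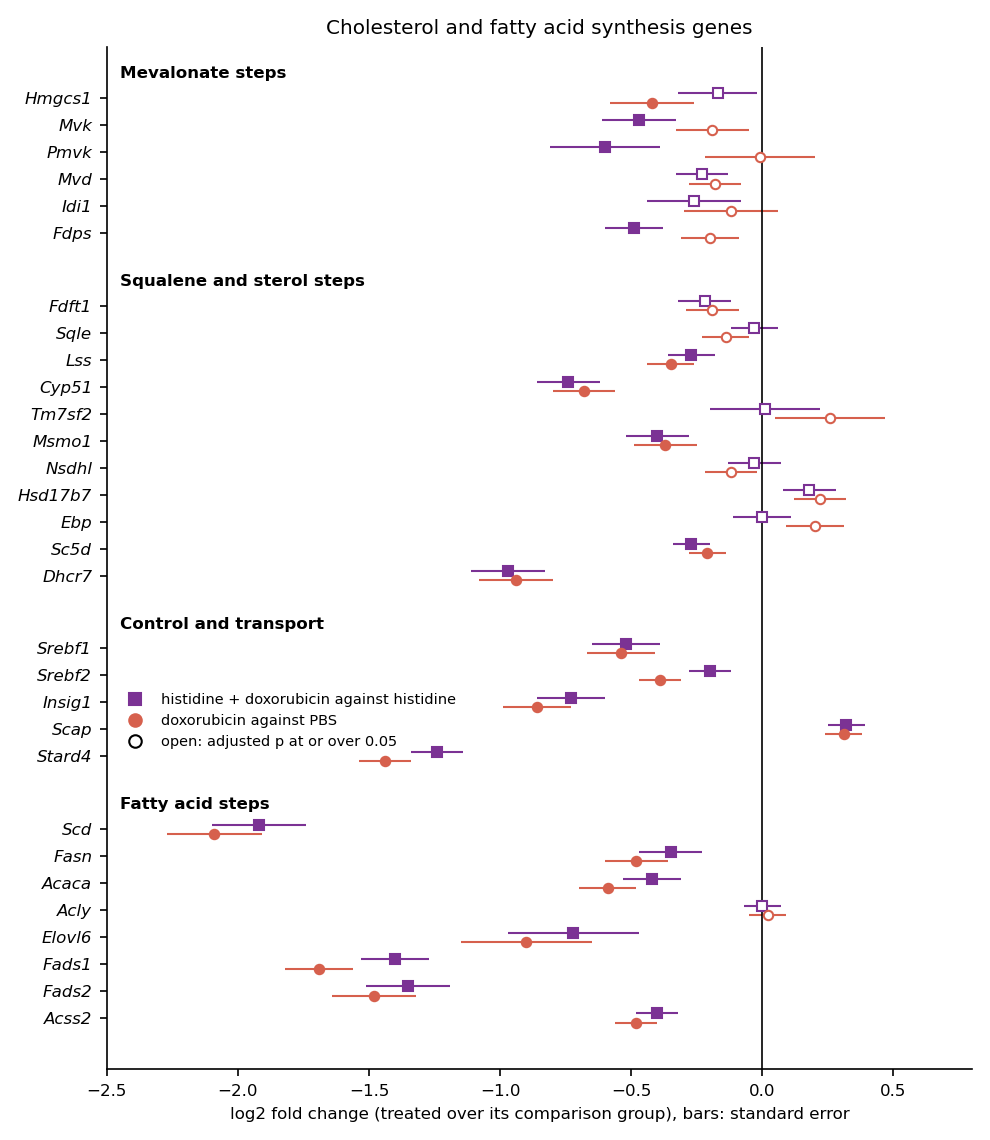
Log2 fold change with standard error of each gene in histidine plus doxorubicin against histidine (squares) and doxorubicin against PBS (circles), grouped by role. Filled symbols passed the adjusted p threshold of 0.05. Scd lies furthest left at -1.92 and -2.09, Scap has the only filled symbols right of 0, and most mevalonate genes lie between -0.60 and 0.

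Of the 5 control genes, Srebf1, Srebf2, Insig1 and Stard4 fell and Scap rose, in both comparisons. Among all genes 21.5% fell and 21.7% rose in doxorubicin against PBS, and 20.3% and 19.9% in both compounds against histidine. Srebf1, which encodes SREBP-1, the regulator tied mainly to fatty acid genes, had 48.7, 51.9, 44.2, 51.9 and 56.6 CPM in doxorubicin replicates 1 to 5, against 76.5, 81.4, 57.0, 73.0 and 79.2 CPM in PBS replicates 1 to 5. The groups came within 1 CPM of each other, at doxorubicin replicate 5 and PBS replicate 3, but did not overlap, and the log2 fold change was -0.54 ± 0.13 (± standard error; adjusted p = 0.00204). With both compounds it had 46.9, 44.8, 55.0, 50.8 and 54.8 CPM, against 82.3, 83.0, 47.5, 75.6 and 74.1 CPM with histidine, where replicate 3 fell inside the range of the treated group; the log2 fold change was -0.52 ± 0.13 (adjusted p = 0.00261). Its gene span overlaps Rai1 on the other strand by 596 bases. Rai1 held 4616 reads per library against 4031 for Srebf1, and was at -0.24 and -0.08 (adjusted p = 0.108 and 0.621).

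Srebf2, which encodes SREBP-2, the main regulator of cholesterol genes, had 106, 103, 95.2, 81.4 and 112 CPM with doxorubicin, against 122, 136, 117, 137 and 142 CPM with PBS. All doxorubicin libraries were lower, and the log2 fold change was -0.39 ± 0.08 (adjusted p = 0.000517). It had 103, 99.3, 113, 104 and 101 CPM with both compounds, against 125, 132, 109.7, 114 and 119.7 CPM with histidine. Here replicate 3 of the group with both compounds lay above histidine replicate 3, and the smaller log2 fold change of -0.20 ± 0.08 passed narrowly (adjusted p = 0.0482). That call was lost without any 1 of 8 libraries, replicates 1, 2, 4 and 5 of either group (adjusted p 0.0523 to 0.128), and with size factor, upper quartile or library total scaling.

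Insig1, whose product holds SCAP in the endoplasmic reticulum and which is itself an SREBP target, had 56.4, 48.6, 47.5, 60.1 and 48.6 CPM with doxorubicin, against 107, 108, 68.4, 89.0 and 102 CPM with PBS. It had 52.2, 58.5, 53.9, 56.0 and 55.7 CPM with both compounds, against 99.3, 101, 61.2, 101 and 95.8 CPM with histidine. No treated library reached the lowest comparison library in either case, and the log2 fold changes were -0.86 ± 0.13 and -0.73 ± 0.13 (adjusted p = 2.35e-05 and 0.000152). A second row with the same protein name held at most 94 reads in any library, so few reads could have been split between them.

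Scap was the member that rose. It had 99.5, 96.0, 84.7, 88.5 and 102 CPM with doxorubicin, against 69.7, 78.8, 77.3, 74.7 and 78.4 CPM with PBS, and the groups did not overlap. With both compounds it had 90.1, 81.6, 103, 96.0 and 103 CPM, against 79.3, 79.5, 75.2, 73.3 and 72.5 CPM with histidine, again without overlap. The log2 fold changes were 0.31 ± 0.07 and 0.32 ± 0.07 (adjusted p = 0.00112 and 0.00105), 1.24-fold and 1.25-fold.

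Stard4, a carrier that moves cholesterol between membranes inside the cell, showed the largest fall of the 5 (ENSRNOG00000020468, chromosome 18, 24817107 to 24830024, minus strand). It had 6.23, 8.03, 6.41, 7.06 and 7.47 CPM with doxorubicin, against 20.8, 19.7, 15.7, 18.9 and 20.3 CPM with PBS, with no treated library above 8.03 CPM and no PBS library under 15.7 CPM. It had 8.20, 8.02, 6.42, 8.56 and 7.69 CPM with both compounds, against 19.8, 20.01, 16.2, 16.6 and 19.5 CPM with histidine. Levels were 2.71-fold and 2.36-fold lower, with log2 fold changes of -1.44 ± 0.10 (adjusted p = 7.43e-10) and -1.24 ± 0.10 (adjusted p = 6.19e-09).

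**Figure D3:**
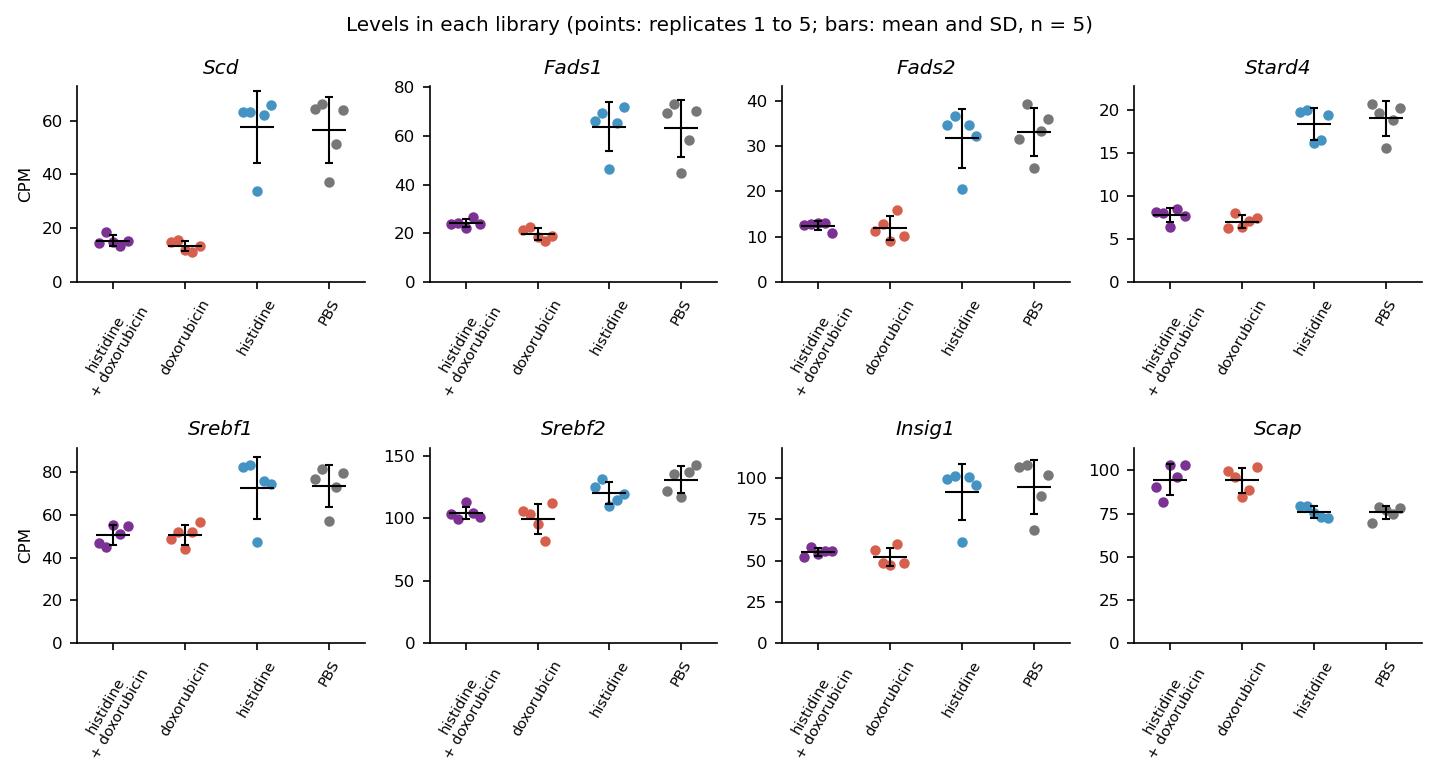
CPM of 8 genes in each library, in cultures given both compounds, doxorubicin, histidine or PBS (points: replicates 1 to 5 from left to right; bars: mean and SD, n = 5; axes start at 0). Scd, Fads1, Fads2 and Stard4 show the widest gaps between the doxorubicin groups and the others, Scap alone is higher with doxorubicin, and replicate 3 of histidine and of PBS is the lowest point of its group for Scd, Fads1, Fads2, Srebf1, Srebf2, Insig1 and Stard4.

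Of the 8 fatty acid genes, 7 fell in both comparisons and Acly did not pass in either. The median log2 fold change of the 8 was -0.74 in doxorubicin against PBS and -0.57 in both compounds against histidine, where 21.5% and 20.3% of all genes fell. The 3 desaturases fell furthest. Their rows in the deposited table, with its coordinates, are Scd (ENSRNOG00000013552, chromosome 1, 243269747 to 243282562, minus strand), Fads1 (ENSRNOG00000020480, chromosome 1, 206827765 to 206842734, plus strand) and Fads2 (ENSRNOG00000020440, chromosome 1, 206708783 to 206748789, minus strand). Scd, stearoyl-CoA desaturase, which puts the first double bond into saturated fatty acids, had 14.9, 15.6, 11.7, 11.04 and 13.4 CPM with doxorubicin, against 64.3, 66.3, 37.3, 51.4 and 64.0 CPM with PBS. With both compounds Scd had 14.4, 18.7, 15.02, 13.3 and 15.04 CPM, against 63.3, 63.4, 33.7, 62.3 and 65.8 CPM with histidine. The highest treated library, at 18.7 CPM, lay far below the lowest untreated one, histidine replicate 3 at 33.7 CPM. Scd was 4.25-fold lower with doxorubicin (log2 fold change -2.09 ± 0.18, adjusted p = 1.12e-08) and 3.77-fold lower with both compounds (-1.92 ± 0.18, adjusted p = 3.81e-08).

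Fads1, the delta-5 desaturase of polyunsaturated fatty acids, had 21.5, 22.4, 18.6, 16.6 and 19.0 CPM with doxorubicin, against 69.4, 73.2, 44.9, 58.4 and 70.2 CPM with PBS. Fads1 had 23.6, 24.1, 22.2, 26.9 and 23.9 CPM with both compounds, against 66.3, 69.6, 46.2, 65.2 and 71.8 CPM with histidine. Neither pair of groups came near to overlapping, and the log2 fold changes were -1.69 ± 0.13 (adjusted p = 2.66e-09) and -1.40 ± 0.13 (adjusted p = 3.65e-08).

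Fads2, the delta-6 desaturase of the same pathway, had 11.3, 12.9, 9.13, 15.9 and 10.1 CPM with doxorubicin, against 31.6, 39.4, 25.3, 33.3 and 36.1 CPM with PBS. Fads2 had 12.6, 12.9, 12.9, 13.1 and 10.8 CPM with both compounds, against 34.8, 36.6, 20.5, 34.7 and 32.3 CPM with histidine. All treated libraries were lower, with log2 fold changes of -1.48 ± 0.16 (adjusted p = 2.8e-07) and -1.35 ± 0.16 (adjusted p = 1.02e-06). The gene span of Fads2 overlaps ferritin heavy chain on the opposite strand by 16642 bases. That gene held 87480 reads per library on average, against 1452 for Fads2, and the library preparation did not keep strand, so reads of the overlap cannot be told apart; its log2 fold changes were 0.02 and -0.11 and did not pass (adjusted p = 0.881 and 0.444).

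Elovl6, the elongase that carries palmitate to stearate, had 9.17, 10.1, 10.3, 8.07 and 8.36 CPM with doxorubicin, against 22.3, 19.9, 4.92, 19.0 and 19.9 CPM with PBS. PBS replicate 3 lay below all treated libraries and the other 4 PBS libraries above all of them. The log2 fold change was -0.90 ± 0.25 (adjusted p = 0.00653), and without PBS replicate 3 it was -1.14 (adjusted p = 1.17e-07). With both compounds Elovl6 had 9.30, 13.3, 9.43, 10.6 and 9.14 CPM, against 17.3, 18.2, 15.3, 16.3 and 18.3 CPM with histidine, with no overlap (-0.72 ± 0.25, adjusted p = 0.027). The second call was lost without histidine replicate 2 or 5 or without replicate 1, 3 or 5 of both compounds (adjusted p 0.0503 to 0.0592).

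Fasn, fatty acid synthase, averaged 283 ± 50.4 CPM with doxorubicin and 395 ± 48.6 CPM with PBS (mean ± SD, n = 5 each), a log2 fold change of -0.48 ± 0.12 (adjusted p = 0.00284). Acaca, the acetyl-CoA carboxylase that makes malonyl-CoA, averaged 67.7 ± 12.2 CPM with doxorubicin and 102 ± 7.02 CPM with PBS (-0.59 ± 0.11, adjusted p = 0.000331). Acss2, which makes acetyl-CoA from acetate, averaged 16.6 ± 1.58 CPM with doxorubicin and 23.2 ± 1.72 CPM with PBS (-0.48 ± 0.08, adjusted p = 9.44e-05). All 3 had groups that did not overlap in both comparisons, with log2 fold changes of -0.35 ± 0.12, -0.42 ± 0.11 and -0.40 ± 0.08 in both compounds against histidine (adjusted p = 0.0253, 0.00643 and 0.000592). The second Fasn call was lost without histidine replicate 1 or 2 or replicate 2 of both compounds (adjusted p 0.0516 to 0.0708). Acly, the lyase that makes cytosolic acetyl-CoA from citrate, stood at 195 ± 22.03 CPM with doxorubicin and 192 ± 5.80 CPM with PBS, a log2 fold change of 0.02 ± 0.07 with a 95% interval of -0.13 to 0.16; in both compounds against histidine it was 0.00 ± 0.07 (-0.14 to 0.15). Acly shares over 15 kb of gene span with genes on the other strand, Fkbp10 and Eif1, which held 20759 and 16298 reads per library against its 12694. Fkbp10 did not pass (0.04 and -0.14, adjusted p = 0.8 and 0.328) and Eif1 rose in both comparisons (0.25 and 0.23, adjusted p = 0.00922 and 0.0149), while reads of the overlaps cannot be told apart. Acss2 overlaps glutathione synthetase by 11826 bases, a gene that rose with doxorubicin (log2 fold change 0.53, adjusted p = 0.00168).

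Of the 6 mevalonate genes, 1 fell in doxorubicin against PBS, beside 21.5% of all genes, with a median log2 fold change of -0.18. In both compounds against histidine 3 of 6 fell, beside 20.3% of all genes, with a median of -0.36. The count of 1 of 6 is near the share of all genes and no result about this set. Hmgcs1 was the one that fell with doxorubicin alone: 146, 119, 103, 104 and 129.5 CPM with doxorubicin, against 186, 179, 103, 153 and 180.2 CPM with PBS. PBS replicate 3 lay just under the lowest doxorubicin library and the other 4 PBS libraries above all of it, giving a log2 fold change of -0.42 ± 0.16 (adjusted p = 0.0367). Leaving out replicate 1, 2 or 5 of PBS, or 2, 3 or 4 of doxorubicin, ended the call (adjusted p 0.0593 to 0.0921), and in both compounds against histidine Hmgcs1 did not pass (-0.17 ± 0.15, adjusted p = 0.419).

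Fdps, the synthase that makes farnesyl diphosphate, had 115, 126, 121, 177 and 113 CPM with doxorubicin, against 155, 155, 125, 155 and 161 CPM with PBS. Replicate 4 was the highest of all 10 and the other 4 doxorubicin libraries reached at most 126 CPM, and the log2 fold change of -0.20 ± 0.11 did not pass (adjusted p = 0.153). Without doxorubicin replicate 4 it was -0.34 and passed (adjusted p = 0.00265), and so did Mvk (-0.33, adjusted p = 0.0252) and Mvd (-0.26, adjusted p = 0.0178), which brought the count of members that fell to 19. The count of all genes that fell rose as well, from 3320 to 3764. In both compounds against histidine, Fdps had 115, 111, 114, 109 and 107 CPM, against 160.2, 171, 124, 171 and 153 CPM, with no overlap (-0.49 ± 0.11, adjusted p = 0.00144).

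Mvk and Pmvk are the kinases that phosphorylate mevalonate in turn. In both compounds against histidine Mvk fell without overlap (-0.47 ± 0.14, adjusted p = 0.00968), and Pmvk fell with overlap (-0.60 ± 0.21, adjusted p = 0.0284), a call lost without histidine replicate 1, 2 or 4 or replicate 2, 4 or 5 of both compounds (adjusted p 0.0513 to 0.0783). With doxorubicin against PBS they were at -0.19 ± 0.14 and -0.01 ± 0.21, with 95% intervals of -0.46 to 0.08 and -0.42 to 0.41. Mvd, the decarboxylase that follows, was at -0.18 ± 0.10 in doxorubicin against PBS and -0.23 ± 0.10 in both compounds against histidine. Idi1, the isomerase of isopentenyl diphosphate, was at -0.12 ± 0.18 and -0.26 ± 0.18. None of these 4 values passed. In both compounds against PBS Mvd fell past the test (-0.33 ± 0.10, adjusted p = 0.0112) and Idi1 did not pass (-0.24 ± 0.18, adjusted p = 0.328). Without doxorubicin replicate 4, where Idi1 had 47.0 CPM against 24.0 to 25.4 CPM in the other 4 doxorubicin libraries, its first value was -0.35 (adjusted p = 0.0528), and that of Pmvk was -0.29. Without histidine replicate 3 the second Mvd value was -0.27 and passed (adjusted p = 0.0406). Idi1 overlaps Wdr37 by 100 bases and Mvd overlaps a pseudogene by 419 bases, on the other strand in each case.

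Of the 11 genes from squalene to cholesterol, the same 5 fell in both comparisons, Lss, Cyp51, Msmo1, Sc5d and Dhcr7, with a median over the 11 of -0.19 in doxorubicin against PBS and -0.22 in both compounds against histidine. The shares of all genes that fell were 21.5% and 20.3%. Dhcr7, the reductase of the last step, averaged 8.43 ± 1.07 CPM with doxorubicin and 16.2 ± 1.82 CPM with PBS (-0.94 ± 0.14, adjusted p = 1.58e-05), and 7.98 ± 0.577 CPM with both compounds and 15.6 ± 3.46 CPM with histidine (-0.97 ± 0.14, adjusted p = 1.28e-05). Cyp51 averaged 90.3 ± 12.6 CPM with doxorubicin and 145 ± 21.0 CPM with PBS (-0.68 ± 0.12, adjusted p = 0.000126), and fell by 0.74 on the log2 scale with both compounds (adjusted p = 5.41e-05). Neither gene had overlapping groups in either comparison.

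Lss, which closes squalene epoxide to lanosterol, also fell (-0.35 ± 0.09 and -0.27 ± 0.09), as did Msmo1 (-0.37 ± 0.12 and -0.40 ± 0.12) and Sc5d, the C5 desaturase (-0.21 ± 0.07 and -0.27 ± 0.07), in doxorubicin against PBS and in both compounds against histidine. With 1 library left out, Lss no longer passed in the second comparison when this was histidine replicate 2 (adjusted p = 0.0633). In the first, Msmo1 no longer passed when PBS replicate 1 (0.0555) or doxorubicin replicate 5 (0.0513) was left out, and Sc5d when PBS replicate 2 was (0.0513).

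The other 6 sterol genes did not pass in either comparison. Fdft1, squalene synthase, was at -0.19 ± 0.10 with doxorubicin and -0.22 ± 0.10 with both compounds, and Sqle, squalene epoxidase, at -0.14 ± 0.09 and -0.03 ± 0.09. Without PBS replicate 3 both passed in doxorubicin against PBS, at -0.25 and -0.21 (adjusted p = 0.0441 and 0.0497), which again brought the count to 19. Over all genes 3151 fell in that fit, against 3320 with all libraries. In both compounds against histidine Fdft1 passed at -0.28 without histidine replicate 3 or without replicate 2 of both compounds (adjusted p = 0.0254 and 0.0293), and the count without histidine replicate 3 was 21. Over all genes 3041 fell without histidine replicate 3, against 3133 with all libraries. Nsdhl, a C4 decarboxylating dehydrogenase, was at -0.12 ± 0.10 and -0.03 ± 0.10, and Ebp, the delta-8 isomerase, at 0.20 ± 0.11 and 0.00 ± 0.11. Hsd17b7 was at 0.22 ± 0.10 and 0.18 ± 0.10, and Tm7sf2, a C14 reductase, at 0.26 ± 0.21 and 0.01 ± 0.21. The widest 95% interval among these with doxorubicin was that of Tm7sf2, -0.16 to 0.68.

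The members also varied together inside the groups that had no doxorubicin. Histidine replicate 3 was the lowest of its 5 libraries for 25 of the 30 members (83.3%), while it was lowest for 24.6% of the 11138 genes with a mean of at least 5 CPM. PBS replicate 3 was likewise the lowest for 25 of 30 (83.3%), while it was lowest for 22.2% of all those genes. The members in these libraries stood at a median of -0.33 and -0.34 on the log2 scale relative to the mean of the other 4 libraries of their group, and the median of all genes at 0.00 in both. Among the other 18 libraries the highest share of members at their lowest was 43.3%, in doxorubicin replicate 4, where 39.2% of all genes were lowest. Of 25 related fatty acid genes outside the members 10 were lowest in histidine replicate 3 and 11 in PBS replicate 3, and of 10 related sterol genes 3 and 3. The depth of the 2 libraries, 63172946 and 76953849 reads, lay within the range of the others. Cell type markers shifted in these libraries too. Smooth muscle and pericyte markers were lowest in histidine replicate 3 for 8 of 10 and in PBS replicate 3 for 6 of 10, fibroblast markers for 6 of 12 in each, cardiomyocyte markers for 2 and 8 of 12, and dividing-cell markers for 6 and 2 of 10. Macrophage and leukocyte markers were highest in them for 7 and 5 of 11. The share of all genes highest in these 2 libraries is not given here, so these 2 counts are no result about that list. The lists in this paragraph hold only genes with a mean of at least 5 CPM, so some are shorter than elsewhere. The part of these markers in the pattern was not tested. With doxorubicin present, replicate 3 of the 2 groups was lowest for 7 and 11 of 30 members, 23.3% with both compounds, where it was lowest for 24.1% of all genes, and 36.7% with doxorubicin alone, where it was lowest for 20% of all genes. Over all genes the replicate 3 libraries of 2 groups deviated together in all 6 pairs of groups (correlation of deviations from the group mean 0.09 to 0.309, over genes, which are not independent). The labels do not say whether a number marks a shared isolation or batch.

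**Figure D4:**
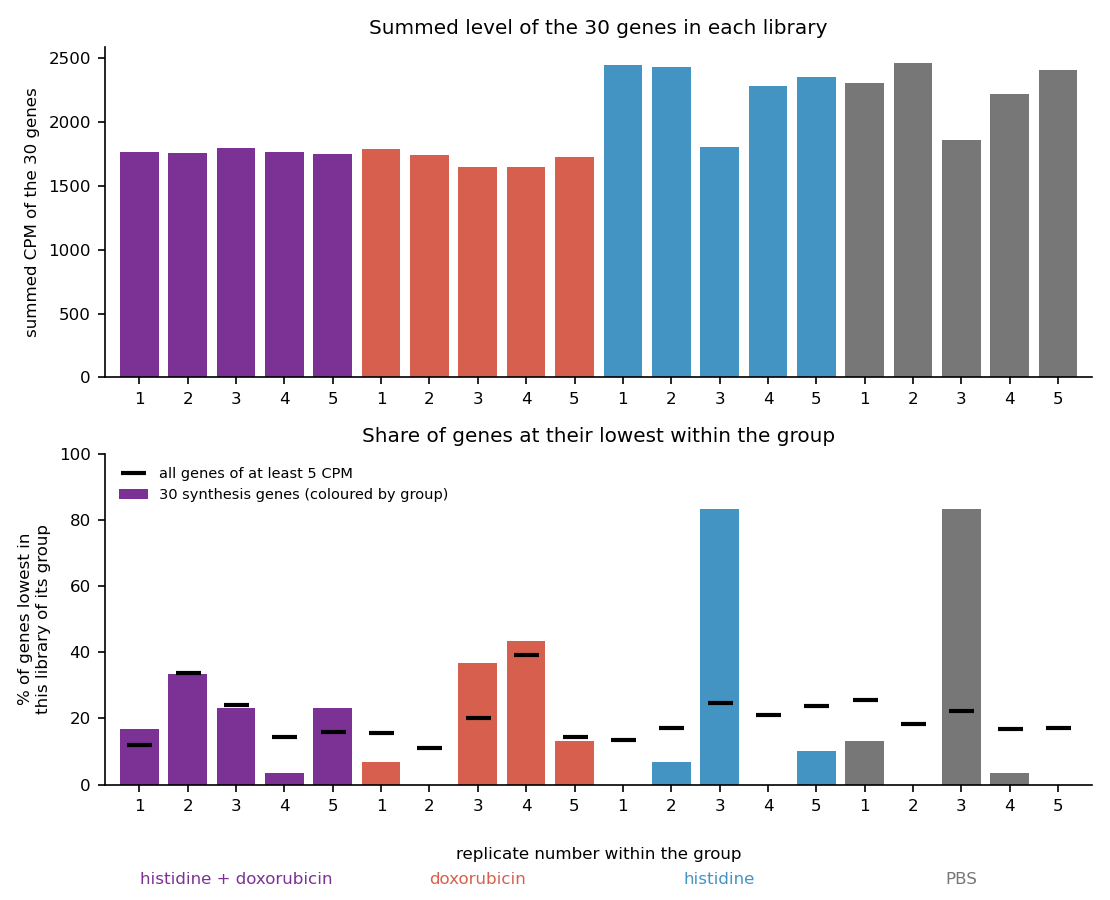
Top, summed CPM of the 30 genes in each library, by group; bottom, percent of the 30 genes (bars) and of all genes with at least 5 CPM (black dashes) that are at their lowest of the group in that library. Replicate 3 of histidine and of PBS holds the lowest value of 83.3% of the 30 genes, against 24.6% and 22.2% of all genes.

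**Figure D5:**
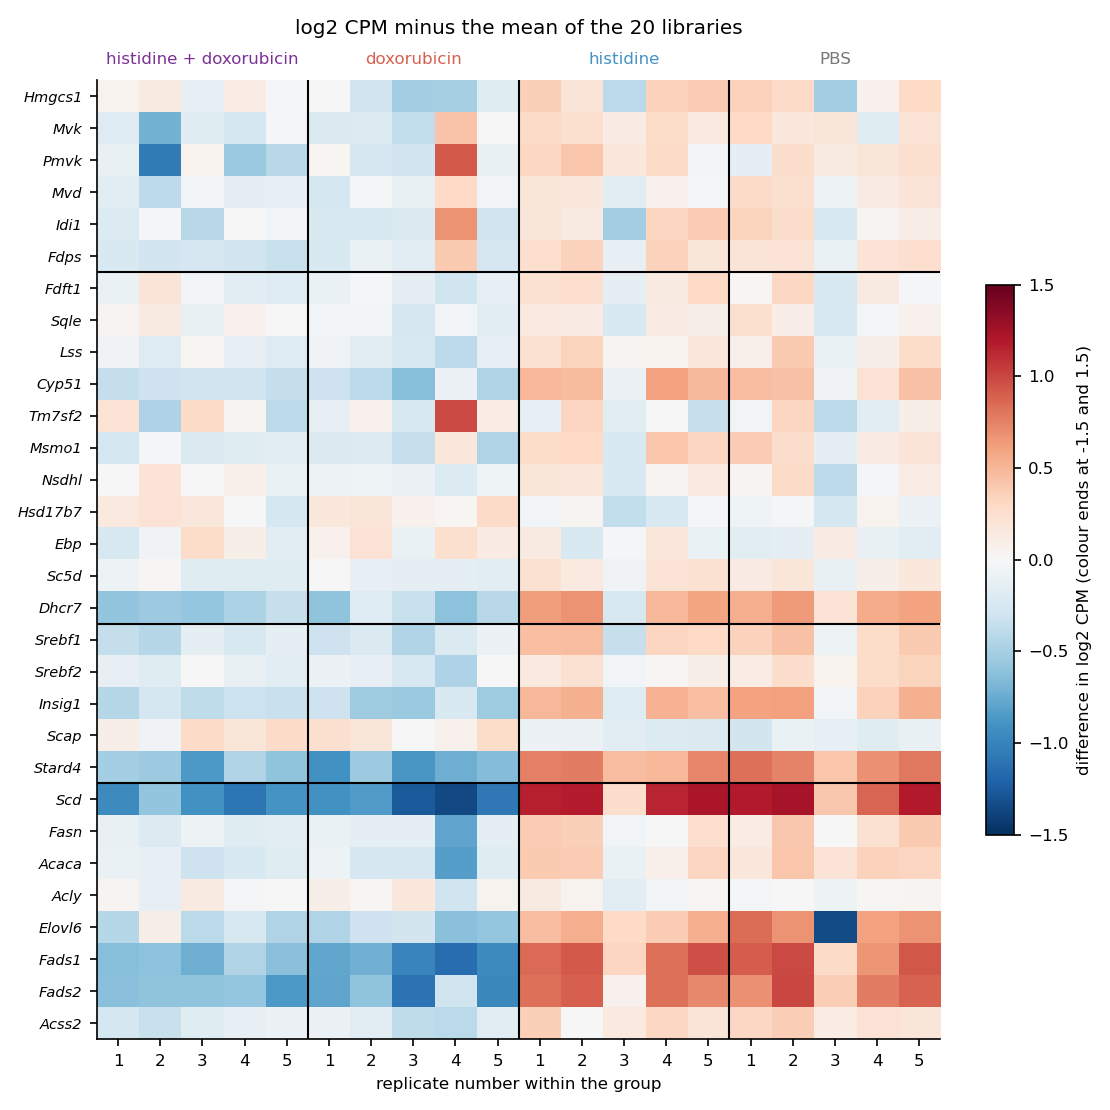
Difference of log2 CPM from each gene's mean over the 20 libraries, for the 30 genes (rows, split by role) in each library (columns, split by group); colours end at -1.5 and 1.5. The 10 doxorubicin-treated libraries are blue for most rows, histidine and PBS replicate 3 are paler or bluer than their neighbours, and doxorubicin replicate 4 is red for Mvk, Pmvk, Idi1, Fdps and Tm7sf2.

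Histidine added to doxorubicin changed no member past the test. In both compounds against doxorubicin 0 of 30 members fell or rose, beside 0% of all genes (edgeR, adjusted p under 0.05); at an unadjusted p under 0.05 there were 3 members, beside 12.6% of all genes, and DESeq2 also called 0 members. The 2 smallest p-values were those of Pmvk and Fads1. Pmvk had 12.5, 6.50, 14.0, 9.19 and 10.1 CPM with both compounds, against 13.8, 11.3, 11.03, 25.5 and 12.5 CPM with doxorubicin, where replicate 4 was more than any of the other 19 libraries; the log2 fold change was -0.50 ± 0.21 (adjusted p = 0.393), and -0.22 without doxorubicin replicate 4 (adjusted p = 0.788). Fads1, with the values given above, was at 0.30 ± 0.13 (adjusted p = 0.393), and 4 of the 5 libraries with both compounds exceeded every doxorubicin library. Intervals show what size of difference these libraries leave possible: for Scd the log2 fold change was 0.20 ± 0.18 with a 95% interval of -0.15 to 0.54, for Stard4 0.14 ± 0.10 (-0.06 to 0.34), for Srebf1 -0.01 ± 0.13 (-0.26 to 0.24) and for Srebf2 0.07 ± 0.08 (-0.09 to 0.22). The intervals, not adjusted for the number of genes, left out 0 for Pmvk (-0.92 to -0.09) and Fads1 (0.05 to 0.55). They also did for Fdps (-0.23 ± 0.11, -0.45 to -0.02) and Hmgcs1 (0.32 ± 0.16, 0.01 to 0.62). Neither Fdps nor Hmgcs1 passed (edgeR, adjusted p = 0.398 and 0.403).

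Histidine alone also changed no member past the test. In histidine against PBS 0 of 30 members passed, beside 0% of all genes, and at an unadjusted p under 0.05 there were 0 members, beside 2.02% of all genes; DESeq2 called 0 members. Log2 fold changes of the 30 ran from -0.12 to 0.11. The smallest p-values were those of Srebf2 (-0.12 ± 0.08) and Fdft1 (0.11 ± 0.10), both with an adjusted p of 1. Srebf2 has its 5 values in each group above, and they overlap. Fdft1 had 86.0, 87.3, 67.0, 80.6 and 90.5 CPM with histidine, against 74.5, 91.1, 62.9, 80.9 and 72.5 CPM with PBS, where the lowest of each group was replicate 3. The 95% interval was -0.31 to 0.36 for Scd and -0.28 to 0.03 for Srebf2.

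The interaction, which asks whether the doxorubicin change differed with histidine present, passed for 0 of 30 members, beside 0% of all genes; at an unadjusted p under 0.05 there were 0 members, beside 6.86% of all genes, and DESeq2 called 0 members. The smallest p-values were those of Pmvk (-0.60 ± 0.30) and Fdps (-0.29 ± 0.16), both with an adjusted p of 0.631. Without doxorubicin replicate 4 they were at -0.31 and -0.15 (adjusted p = 0.845 and 0.857). Both compounds against PBS, which shares libraries with the comparisons above, had 19 members that fell and 1, Scap, that rose, beside 20.7% of all genes that fell, 19.2% that rose and 39.9% that passed in either direction; the median over the members was -0.36. Of all calls in that comparison 48.1% were higher, and 58.8% were when libraries were scaled by their totals alone.

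Genes of the same pathways outside the 30 moved in both directions; values below are log2 fold changes in doxorubicin against PBS and then in both compounds against histidine, each past the test unless said. Beside the counts below, 21.5% of all genes fell and 21.7% rose in the first comparison, and 20.3% and 19.9% in the second; a count near these shares is no result about its list. Of 11 other sterol pathway genes 4 fell and 2 rose in doxorubicin against PBS, with a median of 0, and 4 fell and 1 rose in both compounds against histidine. Lbr, the lamin B receptor, which also has sterol C14 reductase activity, fell (-1.62 ± 0.09 and -1.58 ± 0.09), and so did Pdss1, which builds the tail of coenzyme Q (-0.84 ± 0.15 and -0.70 ± 0.15). Cyb5r3, which feeds electrons to cytochrome b5, rose (0.45 ± 0.07 and 0.39 ± 0.07).

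Of 14 regulators of SREBP outside the members 2 fell and 4 rose in doxorubicin against PBS (median 0.08), and 2 fell and 3 rose in both compounds against histidine. Erlin1, a membrane protein of the endoplasmic reticulum, fell (-0.63 ± 0.09 and -0.48 ± 0.09), and so did Sec24d, a subunit of the COPII coat that carries cargo to the Golgi (-0.26 ± 0.05 and -0.22 ± 0.05). Mbtps1, the site-1 protease that makes the first cut in SREBP, rose (0.25 ± 0.07 and 0.34 ± 0.07).

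Of 22 genes of cholesterol uptake, storage, transport and efflux 13 fell and 4 rose in doxorubicin against PBS (median -0.34), and 10 fell and 3 rose in both compounds against histidine. The smallest p-values belonged to genes that fell: Scarb1, the receptor for high-density lipoprotein (-1.05 ± 0.09 and -0.93 ± 0.09), Lipa, the lysosomal acid lipase (-0.80 ± 0.07 and -0.75 ± 0.07), Apoe, apolipoprotein E (-2.55 ± 0.27 and -2.67 ± 0.27), and Abcg1, a cholesterol exporter (-1.10 ± 0.12 and -1.34 ± 0.12).

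Of 29 other genes of fatty acid synthesis, elongation, desaturation and their supply of NADPH and citrate, 8 fell and 6 rose in doxorubicin against PBS (median -0.07), and 11 fell and 4 rose in both compounds against histidine. Acsl3, a long-chain acyl-CoA synthetase, fell (-0.99 ± 0.08 and -1.06 ± 0.08), as did the elongase Elovl5 (-0.55 ± 0.06 and -0.42 ± 0.06) and Scd2, a second stearoyl-CoA desaturase (-0.70 ± 0.11 and -0.55 ± 0.11), less than Scd itself; reads of these like-sequence desaturases could have been split between them in counting. Idh1, an NADPH-forming dehydrogenase, rose (0.50 ± 0.08 and 0.47 ± 0.08). Of 16 glycerolipid synthesis genes 2 fell and 5 rose (median 0.11) in doxorubicin against PBS, and 4 fell and 4 rose in both compounds against histidine. Plin2, a coat protein of lipid droplets, rose (0.85 ± 0.07 and 0.67 ± 0.07), and so did the phosphatidate phosphatase Lpin3 (0.83 ± 0.13 and 0.81 ± 0.13). Its relative Lpin2 fell (-0.74 ± 0.07 and -0.62 ± 0.07), as did Mogat2, a monoacylglycerol acyltransferase (-1.10 ± 0.17 and -1.07 ± 0.17).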

How the data were processed

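The members and the lists of related and marker genes were chosen with earlier results of these data known. RNA was sequenced from 20 libraries, 5 per group, grouped by their titles. The submitters' processing notes name Trimmomatic and the rat build mRatBN7.2. Which aligner, counter and annotation release the authors used is not given in the sources used here. Raw read counts and FPKM values stand side by side in the deposited table, the second of which the authors scaled to gene length and library reads, per the file headers. Per the labels' protocols the libraries do not keep strand, so overlapping or antisense genes cannot be told apart, and reads of near-identical copies could be split. Total counts per library ran from 53246205 to 83624651, and their number sets the precision of low genes.

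Counts were filtered with filterByExpr (15449 of 15503 genes), scaled by TMM, and tested with edgeR 4.0.16 in R 4.3.3 by quasi-likelihood F test in 1 fit of the 4 groups, with Benjamini-Hochberg adjustment over all genes and a threshold of 0.05. The SE is the log2 fold change divided by the square root of F, and 95% intervals rest on it and a normal quantile. They are therefore somewhat narrow beside the F test. For Hmgcs1 in both compounds against doxorubicin the interval left out 0 while the unadjusted p of that test was 0.0542. The procedure was tested on simulated data. Every member is named. Values of every library are given for members past the test with a log2 fold change of at least 1 in size in doxorubicin against PBS and for Srebf1, Srebf2, Insig1 and Scap. Where no member passed, they are given for the 2 with the smallest p. From each related list up to 4 genes past the test were taken, with the smallest p and a mean of at least 1 FPKM. Of these, 2 are not reported here. Other members with library values were added after their values were seen. Alternatives were other scalings, no filter, DESeq2 1.42.0, limma 3.58.1 on log2(FPKM + 1) and log2(FPKM + 0.1), a replicate block, only the 2 groups compared, and each library left out. No library was a duplicate of another in its group: chi-square over degrees of freedom was 34.5 to 645 in the 40 pairs within groups. Pairs from different groups were not checked in this way. Promoters are from RefSeq (GRCr8).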

Additional observations from a re-analysis of the deposited data

Results flagged for a closer look

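In 23 cases 1 library stood apart from the other 4 of its group for a member, judged by the gap to the nearest library divided by the range of the group (Dixon's limit of 0.71 for 5 libraries), over 120 sets of 5 libraries (30 genes in 4 groups). That is 19.2% of the sets. Chance gives about 1 in 20 where sets are independent, which sets from the same libraries are not, and over all genes with a mean of at least 5 CPM the share was 13.7%.

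Histidine replicate 3 was the low library in 10 of the 23. The gap ratio was 0.890 for Scd (33.7 CPM, against 62.3 to 65.8 CPM in the other 4), 0.868 for Insig1 (61.2 CPM, against 95.8 to 101 CPM), 0.841 for Sqle (67.4 CPM, against 83.8 to 86.9 CPM) and 0.777 for Cyp51 (109.7 CPM, against 162 to 178 CPM). It was 0.750 for Srebf1, 0.744 for Dhcr7, 0.742 for Fads1, 0.735 for Msmo1, 0.733 for Fads2 and 0.715 for Hmgcs1. Histidine replicate 3 was thus the low library by this limit for 10 of the 30 members, and for 1.39% of all genes with a mean of at least 5 CPM. The 10 members span sterol synthesis, desaturation and the control of both. PBS replicate 3 was the low library for Fdps (0.825; 125 CPM, against 155 to 161 CPM), Elovl6 (0.809; 4.92 CPM, against 19.0 to 22.3 CPM) and Dhcr7 (0.757; 13.1 CPM, against 16.5 to 17.6 CPM), and the high one for Ebp (0.845; 11.2 CPM, against 9.15 to 9.46 CPM). Of all those genes it was the low library for 0.754% and the high one for 0.988%.

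Doxorubicin replicate 4 was the high library for Idi1 (0.941; 47.0 CPM, against 24.0 to 25.4 CPM), Pmvk (0.809; 25.5 CPM, against 11.03 to 13.8 CPM), Fdps (0.796; 177 CPM, against 113 to 126 CPM) and Tm7sf2 (0.796; 16.5 CPM, against 7.04 to 8.97 CPM). It was the low one for Fasn (0.923; 193 CPM, against 303 to 312 CPM), Nsdhl (0.816; 29.3 CPM, against 31.7 to 32.3 CPM) and Acaca (0.711; 47.0 CPM, against 69.6 to 78.8 CPM). This is the library that also stood apart over all genes, as the high one in 18% and the low one in 7.66%. The other 2 cases were Sc5d, high in doxorubicin replicate 1 (0.793; 39.7 CPM, against 35.6 to 36.4 CPM), and Fads2, low in replicate 5 of the group with both compounds (0.804; 10.8 CPM, against 12.6 to 13.1 CPM).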

How the results depend on the processing

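Of the 17 members that fell in doxorubicin against PBS, 12 did so in every alternative run, as did Scap, which rose; of the 19 in both compounds against histidine, 14 did, as did Scap. Counts of members that fell ran from 13 to 17 in doxorubicin against PBS, 15 to 20 in both against histidine and 14 to 20 in both against PBS over the other settings, and from 15 to 19, 14 to 21 and 14 to 19 with 1 library left out. The count of all genes that fell moved too, from 3320, 3133 and 3198 of 15449 in the main run. It ran from 2863 to 3386, 2725 to 3847 and 2669 to 3866 over the other settings. With 1 library left out it ran from 3074 to 3764, 2892 to 3041 and 2967 to 3067. Members that rose stayed at 1, except that limma on log2(FPKM + 1) gave 2 in doxorubicin against PBS, Hsd17b7 (0.21, adjusted p = 0.0491) beside Scap. Both limma scales ended the calls of Hmgcs1, Lss and Sc5d in doxorubicin against PBS and of Lss, Srebf2, Fasn and Elovl6 in both against histidine, and log2(FPKM + 0.1) that of Elovl6 in the first. Library totals ended those of Hmgcs1 and Sc5d in the first and of Lss, Srebf2 and Fasn in the second, upper quartile scaling those of Hmgcs1, Srebf2 and Fasn, and a fit of only the 2 groups compared that of Hmgcs1. The 3 comparisons with 0 members called had 0 in all settings; over all genes DESeq2 called 14 lower and 6 higher in both compounds against doxorubicin, 3 and 2 in histidine against PBS, and 7 and 8 in the interaction. Leaving doxorubicin replicate 4 out of the shared fit, chosen after the data were seen, gave 20 members that fell in both against histidine and 20 in both against PBS. Calls rose over all genes as well, with 3847 and 3866 lower in that fit, against 3133 and 3198 in the main fit. Scaling by library totals moved the median of all genes to 0.10 in doxorubicin against PBS.

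Signs turned for members that did not pass, among them Tm7sf2, at 0.26 in doxorubicin against PBS with all libraries. In doxorubicin against PBS, Pmvk was at 0.00 with size factors, upper quartile scaling and DESeq2 and 0.02 with library totals. In both compounds against histidine, Sqle, Nsdhl and Ebp were at 0.01, 0.01 and 0.03 with upper quartile scaling, 0.03, 0.03 and 0.05 with library totals, and 0.03, 0.03 and 0.04 with limma on either FPKM scale. With 1 library left out, values in doxorubicin against PBS ran from -0.29 to 0.08 for Pmvk, -0.02 to 0.36 for Tm7sf2 and -0.02 to 0.09 for Acly, and in both against histidine from -0.09 to 0.01 for Sqle, -0.08 to 0.12 for Tm7sf2, -0.09 to 0.01 for Nsdhl, -0.08 to 0.05 for Ebp and -0.03 to 0.04 for Acly. The cause was not tested.

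Replicate numbers were not taken to pair the libraries: of 30 correlations between same-numbered libraries of 2 groups 7 were over 0.1 (-0.107 to 0.309, median 0.024), and 4 of those 7 were between replicate 3 libraries. With a replicate block 17 members fell and 1 rose in doxorubicin against PBS, 19 and 1 in both against histidine and in both against PBS, and 0 in the other comparisons. Over all genes the block gave 3386 lower and 3193 higher, 3185 and 3125, and 3253 and 2984 in the first 3 of these. Srebf2 no longer passed in both against histidine (-0.20, adjusted p = 0.059) and Fdft1 did (-0.22, adjusted p = 0.048). Promoter windows of 250 bases before the start held TCACNCNA in 5 members (21.7%), against 8.38% of all windows of that length. CCAAT was in 18 members (78.3%, against 34%), GGGCGG in 20 (87%, against 30.5%) and CACGTG in 3 (13%, against 5.59%). TCACCCCAC and TCACNCCAC were in 0 members, against 0.409% and 0.974% of all windows.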
